A study of Mus musculus with 9 samples.

Results

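This account describes 8 genes for drug efflux pumps of the ATP-binding cassette (ABC) family in mouse mammary gland tumors. They are *Abcb1a* and *Abcb1b*, which encode the mouse forms of P-glycoprotein, *Abcg2*, which encodes breast cancer resistance protein (BCRP), *Abcc1*, *Abcc3*, *Abcc4* and *Abcc5*, which encode multidrug resistance-associated proteins (MRPs), and *Abcb4*, which encodes a phospholipid transporter closely related to P-glycoprotein. The members were chosen by name, and all 8 were found among the 35275 genes listed. RNA was sequenced from 9 spontaneous tumors of Brca1Co/Co;MMTV-Cre;p53+/- mice, in which Cre under the MMTV promoter removes Brca1 in mammary epithelium and 1 copy of p53 is lost in the whole animal. This genotype was shared by the saline controls. The mice were given saline, free Talazoparib (i.v. TLZ) or a liposomal Nano-Talazoparib (NanoTLZ), with 3 tumors per group and each tumor from a different mouse. Both forms of the drug were given by i.v. injection. Treatment was 5 doses, given 3 times a week, and each dose of i.v. TLZ or NanoTLZ held 0.33 mg/kg of the drug. Talazoparib inhibits the PARP enzymes, which act in the repair of DNA breaks.

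ABC transporters use ATP to move lipids, metabolites and drugs across membranes. P-glycoprotein and BCRP pump hydrophobic drugs out of cells and guard epithelia and the endothelium of the blood-brain barrier, and Talazoparib is known as a substrate of both. The MRPs export organic anions and conjugates with glutathione or glucuronic acid, and raised *Abcb1a* and *Abcb1b* expression is a known feature of Brca1-deficient mouse mammary tumors that have become resistant to other PARP inhibitors.

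*Abcb1a*, *Abcb1b* and *Abcb4* lie side by side on the forward strand of chromosome 5 (build GRCm38) within 299.2 kb. *Abcb1a* is at chr5:8660077-8748575, *Abcb1b* at chr5:8798147-8866315 and *Abcb4* at chr5:8893717-8959231. *Abcg2* is at chr6:58584523-58695676 on the forward strand and *Abcc1* at chr16:14361558-14475737 on the forward strand. *Abcc3* (chr11:94343295-94392997), *Abcc4* (chr14:118482692-118706219) and *Abcc5* (chr16:20331303-20426394) are on the reverse strand.

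The coding sequences of *Abcb1a* and *Abcb1b* matched at 88.2% of 3819 aligned bases, so that reads from one could be counted on the other. Of all 50-base words in the coding sequence, 22.2% in *Abcb1a* and 20.6% in *Abcb1b* also occurred in another gene, nearly always in the other gene of the pair. For *Abcb4* this share was 3.65%, and for each of *Abcc1*, *Abcc3*, *Abcc4*, *Abcc5* and *Abcg2* it was 0%. The longest run without a difference was 338 bases, and it holds the codons of the ABC signature motif in the first nucleotide-binding domain. A read from this stretch cannot be placed on 1 of the 2 genes, and 120 bases of it are shown from the GENCODE transcripts, with the signature codons in capitals (coding bases 1527 to 1646 of *Abcb1a* and 1536 to 1655 of *Abcb1b*).
Abcb1a and Abcb1b: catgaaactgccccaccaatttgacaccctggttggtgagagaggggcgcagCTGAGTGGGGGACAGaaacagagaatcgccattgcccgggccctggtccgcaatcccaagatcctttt
The 60-base window with the most differences, 25, shows what can tell the genes apart, and capitals mark the bases that differ (coding bases 1913 to 1972 of *Abcb1a* and 1922 to 1981 of *Abcb1b*).
Abcb1a: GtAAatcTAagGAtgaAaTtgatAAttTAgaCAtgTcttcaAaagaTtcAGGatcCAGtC
Abcb1b: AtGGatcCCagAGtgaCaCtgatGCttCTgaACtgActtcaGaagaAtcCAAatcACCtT

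Between 17538380 and 21194980 counts were listed per tumor, and 15821 genes passed the filter on low counts, all 8 transporters among them. The biological coefficient of variation, the spread between tumors of the same group, was 49.8% over all genes. Saline tumor A3688 and i.v. TLZ tumor B3684 stood apart from the rest. Their mean Spearman correlation with the other 8 tumors, across genes, was 0.867 and 0.916, and it was 0.926 to 0.947 for the other 7 tumors. Markers of mammary epithelium were present in every tumor, with none of 8 at 0. The 6 skeletal muscle markers summed to 23.1 to 655 CPM (the counts of a gene scaled to a common library size by TMM) in saline tumors and to 1.69 to 4.09 CPM in treated tumors, and their part in the transporter values was not tested. In RNA from whole tumors, fewer cells of a type and less RNA per cell cannot be told apart.

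The highest values of 3 members lay in 1 tumor. In i.v. TLZ tumor B3684, both P-glycoprotein genes and *Abcg2* were several times higher than in any other tumor. The other 2 i.v. TLZ tumors were at the level of saline tumors for these genes. *Abcc3* was the member that stood higher in every treated tumor than in every saline tumor, with a fitted fold of 1.93, and no transporter passed the test after adjustment.

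*Abcb1a* was at 0.973, 1.95 and 2.34 CPM in the saline tumors, at 1.46, 2.18 and 68.9 CPM after i.v. TLZ, and at 3.47, 3.57 and 13.3 CPM after NanoTLZ. The 68.9 CPM of B3684 rested on 1261 counts and was 5.18 times the next tumor, which was NanoTLZ tumor C3669, and 30.5 times the median of the other 8. Every NanoTLZ tumor was above every saline tumor, while 2 of the 3 i.v. TLZ tumors lay within the saline range. The fitted log2 fold change was 3.78 (SE 1.35) for i.v. TLZ against saline, with an adjusted p of 0.443 in edgeR. It was 1.94 (SE 1.27) for NanoTLZ against saline, with an adjusted p of 0.631 in edgeR. Without B3684 the i.v. TLZ value was 0.05, and the NanoTLZ value fell to 1.03 without C3669.

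*Abcb1b* was at 2.23, 4.91 and 20.6 CPM in the saline tumors, at 3.57, 3.73 and 90.8 CPM after i.v. TLZ, and at 4.97, 5.44 and 16.5 CPM after NanoTLZ. B3684 was again the highest, with 1661 counts and 4.42 times the next tumor. Here the next tumor was the saline tumor A3688, so the 3 groups overlapped. The fitted log2 value was 1.82 (SE 1.25) for i.v. TLZ, adjusted p = 0.611, and -0.05 (SE 1.22) for NanoTLZ, adjusted p = 0.994, both against saline in edgeR. The i.v. TLZ value was -1.34 without B3684 and 3.21 without A3688. The NanoTLZ value was 1.35 without A3688.

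The pair did not rise in one proportion. Per kb of exon, the level of *Abcb1a* was 0.166 times that of *Abcb1b* in A3688, in which only *Abcb1b* was high, and 1.11 times in B3684. The ratio was highest in C3669, at 1.18. In CPM, without scaling by length, *Abcb1a* was below *Abcb1b* in these tumors, at ratios of 0.114 in A3688, 0.759 in B3684 and 0.808 in C3669. The scaling used 5480 annotated exon bases for *Abcb1a* and 7990 for *Abcb1b*, while the coding sequence of each has 3831 bases. Since 20.3% of the 50-base words of each gene also occur in the other, these ratios depend on how the authors' counting treated reads that match both.

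*Abcg2* was at 2.69, 8.17 and 11.7 CPM in the saline tumors, at 2.87, 4.17 and 45.8 CPM after i.v. TLZ, and at 3.66, 5.87 and 6.26 CPM after NanoTLZ. The 45.8 CPM belonged to B3684, with 838 counts and 3.91 times the next tumor, saline tumor A3685. The remaining 8 tumors did not separate by group. The log2 fold change against saline was 1.22 (SE 0.95) for i.v. TLZ, adjusted p = 0.656 in edgeR, and -1.10 without B3684. For NanoTLZ it was -0.52 (SE 0.95), adjusted p = 0.881 in edgeR.

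**Figure D1:**
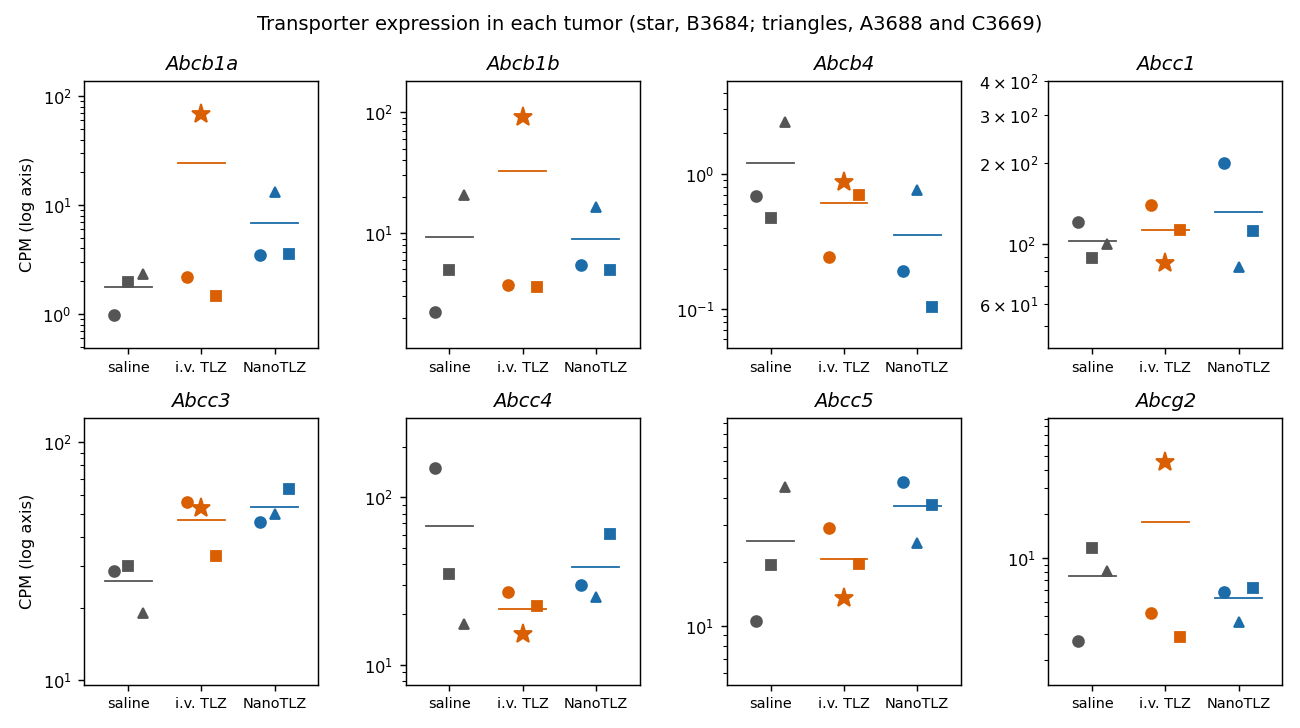
CPM of each transporter (log axis) in the 9 tumors, 1 point per tumor, with the arithmetic mean of each group as a line. The star is B3684, far above the other tumors for *Abcb1a* (68.9 CPM), *Abcb1b* (90.8 CPM) and *Abcg2* (45.8 CPM) and not the highest for the other members. For *Abcc3* all 6 treated tumors lie above the 3 saline tumors.

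Ratios of this size between the highest and the next tumor were uncommon among all genes. B3684 exceeded every other tumor by at least as much as it did for *Abcb1a* in 0.354% of the 15821 tested genes, for *Abcb1b* in 0.468% and for *Abcg2* in 0.569%. With any tumor as the highest, a ratio at least as large was found in 1.59%, 2.07% and 2.53% of the tested genes. In all, 135 genes (0.853%) were at least 3 times as high in B3684 as in any other tumor. The same count was larger for saline tumor A3688, at 335 genes, and was 6 to 64 genes for each of the remaining tumors. For *Abcb4* and *Abcc4* the highest tumor was a saline tumor, at 2.78 times the next (A3688) and 2.50 times the next (A3673). For *Abcc1*, *Abcc3* and *Abcc5* it was a NanoTLZ tumor at 1.43, 1.13 and 1.06 times the next.

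**Figure D2:**
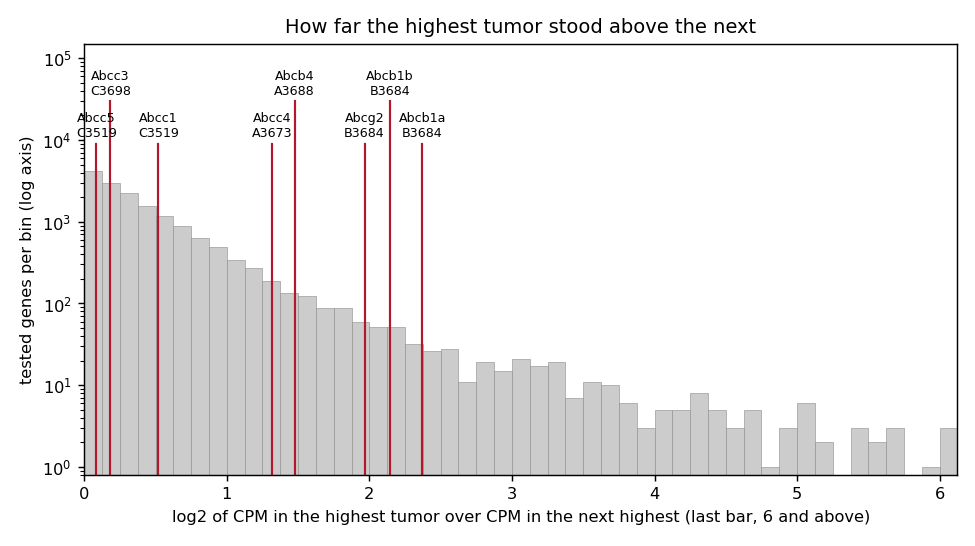
Histogram over the 15821 tested genes of the log2 ratio between the highest tumor and the next (gene number on a log axis). Red lines mark the 8 transporters and name the highest tumor. *Abcb1a*, *Abcb1b* and *Abcg2* are the farthest to the right of the 8, at ratios of 5.18, 4.42 and 3.91, all with B3684 as the highest tumor.

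The marker sums of other cell types did not single out B3684 upwards. Its endothelial markers, of which none of 8 was at 0, summed to 90.4 CPM, against 82.8 to 214 CPM in the other tumors. Its sums for fibroblast (823 CPM), T cell (2.35 CPM) and pericyte markers (198 CPM) were the lowest of the 9 tumors. The fibroblast sum followed *Col1a1* (446 CPM) and *Col1a2* (306 CPM), which were lowest in B3684, while *Dcn*, *Lum*, *Pdgfra* and *Fap* were not. Of the 6 T cell markers, 3 had at most 3 counts in B3684, and *Cd3e* and *Cd2* were not lowest there. The pericyte marker *Kcnj8* went against the pericyte sum, while the other pericyte markers were not highest in B3684. *Kcnj8* was at 66.6 CPM in B3684 and at most 14.3 CPM in any other tumor. The mammary epithelial markers of B3684 summed to 6668 CPM, above 7 of the other 8 tumors, and its proliferation markers to 438 CPM within the 328 to 2046 CPM of the others. Of the epithelial markers, *Krt18* (1867 CPM) and *Epcam* (1368 CPM) were highest in B3684. *Krt14* was lowest there (122 CPM, at least 554 CPM elsewhere). *Krt5* was low in B3684 (2.30 CPM) but nearly level with C3698 (2.33 CPM) and A3685 (3.15 CPM). The part of these single markers in the transporter values of B3684 was not tested. The endothelial sum was 82.8 to 168 CPM in saline and 166 to 214 CPM in NanoTLZ tumors. The T cell sum was higher without overlap in NanoTLZ tumors, at 15.7 to 34.3 CPM against 4.35 to 12.9 CPM in saline, and the proliferation sum lower without overlap, at 468 to 569 CPM against 652 to 2046 CPM. Taken singly, 4 of 8 endothelial and 2 of 6 T cell markers were higher without overlap, as were 7.82% of all tested genes. All 8 endothelial markers had a higher fitted value after NanoTLZ, and 0 had an adjusted p under 0.05 in edgeR. The other endothelial and T cell markers overlapped. Not all of the 6 proliferation markers were lower without overlap, since *Mki67* was at 107 CPM in NanoTLZ tumor C3519 and at 101 CPM in saline tumor A3685. The part of these markers in the NanoTLZ values of *Abcb1a* was not tested.

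*Abcc3* encodes MRP3, an exporter of glucuronides and other organic anions. It was at 19.0, 28.8 and 30.1 CPM in the saline tumors, at 33.2, 52.8 and 55.9 CPM after i.v. TLZ, and at 46.1, 50.1 and 63.4 CPM after NanoTLZ. The lowest treated tumor, at 33.2 CPM, thus exceeded the highest saline tumor, and *Abcc3* was the only member with this order. The sums of the 6 proliferation markers (328 to 624 CPM in treated and 652 to 2046 CPM in saline tumors, none at 0) and of the 6 erythroid markers (1.40 to 22.2 CPM against 23.2 to 59.5 CPM) also separated treated from saline tumors, in the lower direction, and their part in the *Abcc3* values was not tested. Taken singly, 2 of 6 proliferation and 1 of 4 tested erythroid markers were lower without overlap, as were 2.66% of all tested genes. The group means were 26.0 ± 6.03 CPM in saline, 47.3 ± 12.3 CPM in i.v. TLZ and 53.2 ± 9.07 CPM in NanoTLZ (SD, n = 3 each). The log2 fold change against saline was 0.86 (SE 0.31) for i.v. TLZ, adjusted p = 0.443, and 1.04 (SE 0.31) for NanoTLZ, adjusted p = 0.552, in edgeR. For both treatments together it was 0.95 (SE 0.27), with a p of 0.00600 before and 0.284 after adjustment in edgeR. With A3688 and B3684 both left out it was 0.74, and with 1 tumor left out at a time it was 0.79 to 1.07.

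*Abcc1* encodes MRP1, which exports glutathione conjugates and leukotriene C4 and is widely expressed. It was at 89.1, 99.9 and 120 CPM in the saline tumors, at 85.5, 113 and 140 CPM after i.v. TLZ, and at 82.7, 112 and 200.5 CPM after NanoTLZ. The highest and the lowest tumor were both NanoTLZ tumors, and the groups overlapped. In edgeR the log2 fold change against saline was 0.13 with a 95% interval of -0.65 to 0.91 for i.v. TLZ and 0.35 with an interval of -0.43 to 1.14 for NanoTLZ. Of the 8 transporters it had the narrowest range over the tumors, 2.42 times from lowest to highest.

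*Abcc4* encodes MRP4, which carries cyclic nucleotides, prostaglandins and nucleotide analogues. It was at 17.5, 34.8 and 149.9 CPM in the saline tumors, at 15.1, 22.4 and 27.2 CPM after i.v. TLZ, and at 25.4, 29.8 and 60.1 CPM after NanoTLZ. The saline tumor A3673 was far above the others, and without it the treated tumors surrounded the other saline values. The log2 fold change against saline was -1.64 (SE 0.70) for i.v. TLZ, adjusted p = 0.461, and -0.81 (SE 0.69) for NanoTLZ, adjusted p = 0.712, in edgeR. Without A3673 these values were -0.27 and 0.58.

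*Abcc5* encodes MRP5, an exporter of cyclic nucleotides. It was at 10.5, 19.3 and 45.1 CPM in the saline tumors, at 13.4, 19.6 and 28.9 CPM after i.v. TLZ, and at 24.6, 37.3 and 47.9 CPM after NanoTLZ. The i.v. TLZ tumors were inside the saline range, and 1 of 3 NanoTLZ tumors was above it. Against saline the log2 fold change was -0.28 (SE 0.52) for i.v. TLZ and 0.55 (SE 0.52) for NanoTLZ. Without A3688 these values were 0.47 and 1.32.

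*Abcb4* encodes a floppase for phosphatidylcholine that is best known from the bile canaliculi of the liver. It had few reads, with 10, 12 and 53 counts in the saline tumors, 5, 13 and 16 after i.v. TLZ, and 2, 4 and 14 after NanoTLZ. This equals 0.477 to 2.43 CPM in saline, 0.242 to 0.875 CPM in i.v. TLZ and 0.103 to 0.764 CPM in NanoTLZ tumors. The 2 counts of C3698 are below the floor of 3 counts, which covers counting error only, and the groups overlapped. The log2 fold change against saline was -0.98 (SE 0.88) for i.v. TLZ and -1.76 (SE 0.91) for NanoTLZ, and without A3688 it was 0.0756 and -0.69.

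Among the 8 transporters, edgeR called 0 after i.v. TLZ at an adjusted p under 0.05 (0% of all tested genes). Without adjustment 3 had a p under 0.05, *Abcb1a* and *Abcc3* higher and *Abcc4* lower, where 10.4% of all tested genes had one. This count was 0 without B3684 and 1 without A3673 or without B3638. Groups did not overlap for 1 member, *Abcc3*, which was higher, as were 5.99% of all tested genes. After NanoTLZ 0 members were called (0.00632% of all tested genes), and 1, *Abcc3*, had an unadjusted p under 0.05 (8.99% of all tested genes), and 2 members had one without A3688, without B3684 or without C3669. *Abcc3* and *Abcb1a* were higher in all NanoTLZ than in all saline tumors, as were 7.82% of all tested genes. With both treatments against saline, 0 members were called (0.019% of all tested genes), and *Abcc3* and *Abcb1a* had an unadjusted p under 0.05 (13.1% of all tested genes), and 1 member had one without A3673 or without B3684. Only *Abcc3* of the 8 was higher in all 6 treated tumors than in the saline tumors, as were 2.81% of all tested genes. The median log2 fold change of the 8 members was 0.50 after i.v. TLZ and 0.15 after NanoTLZ, where it was -0.03 and -0.09 over all tested genes. Without B3684 the i.v. TLZ median turned to -0.57, and with 1 tumor left out the NanoTLZ median was between 0.07 (without C3519) and 0.62 (without A3688). All of these comparisons used the same 3 saline tumors. DESeq2 also called 0 of the 8, but gave no p for *Abcb1a* and *Abcb1b* when it was fitted to all 9 tumors, since its Cook's distance filter withholds the p of a gene with an extreme count.

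The free and the liposomal form were given i.v. at the same dose of Talazoparib. No tumors given empty liposomes were sequenced, so in NanoTLZ tumors a part of the carrier cannot be told apart from that of the drug. In edgeR 0 transporters were called between NanoTLZ and i.v. TLZ (0% of all tested genes) and 0 had an unadjusted p under 0.05 (1.68% of all tested genes). The groups overlapped for all 8, while 7.61% of all tested genes did not overlap. The log2 difference of NanoTLZ minus i.v. TLZ had a 95% interval of -4.60 to 0.93 for *Abcb1a*, -4.65 to 0.92 for *Abcb1b* and -3.90 to 0.41 for *Abcg2*. These intervals hold both no difference and large ones. The narrowest were those of *Abcc3*, at -0.50 to 0.84, and *Abcc1*, at -0.56 to 1.01. The fitted differences for *Abcb1a*, *Abcb1b* and *Abcg2* were -1.83, -1.87 and -1.74, and without B3684 they were 1.90, 1.30 and 0.58.

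**Figure D3:**
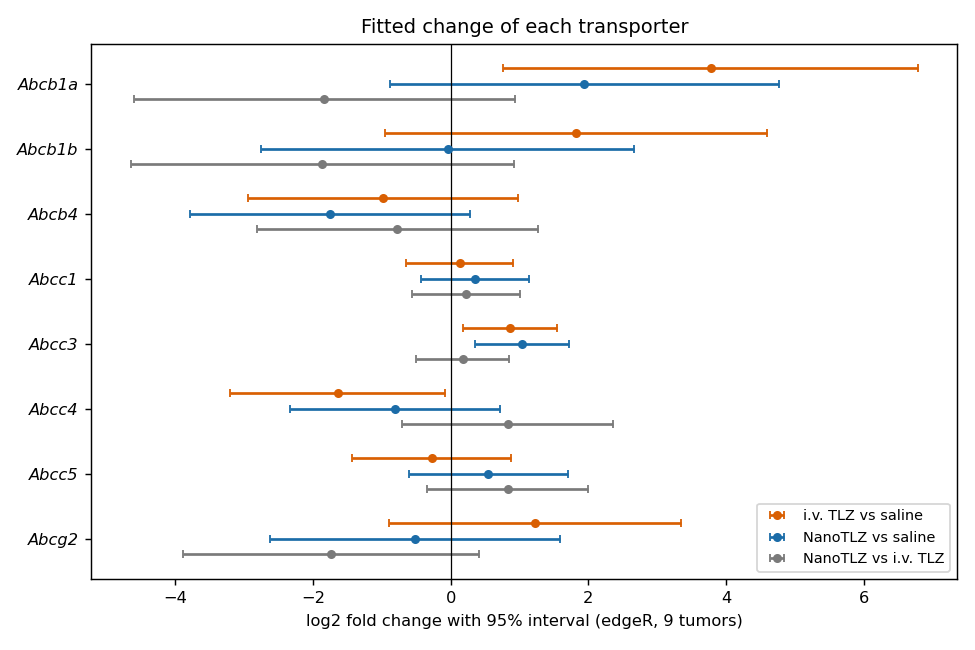
Fitted log2 fold change of each transporter with its 95% interval, from edgeR on all 9 tumors, for 3 comparisons. The intervals are widest for *Abcb1a*, *Abcb1b* and *Abcg2*. Those of *Abcc3* exclude 0 in both comparisons with saline before adjustment over all genes.

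**Figure D4:**
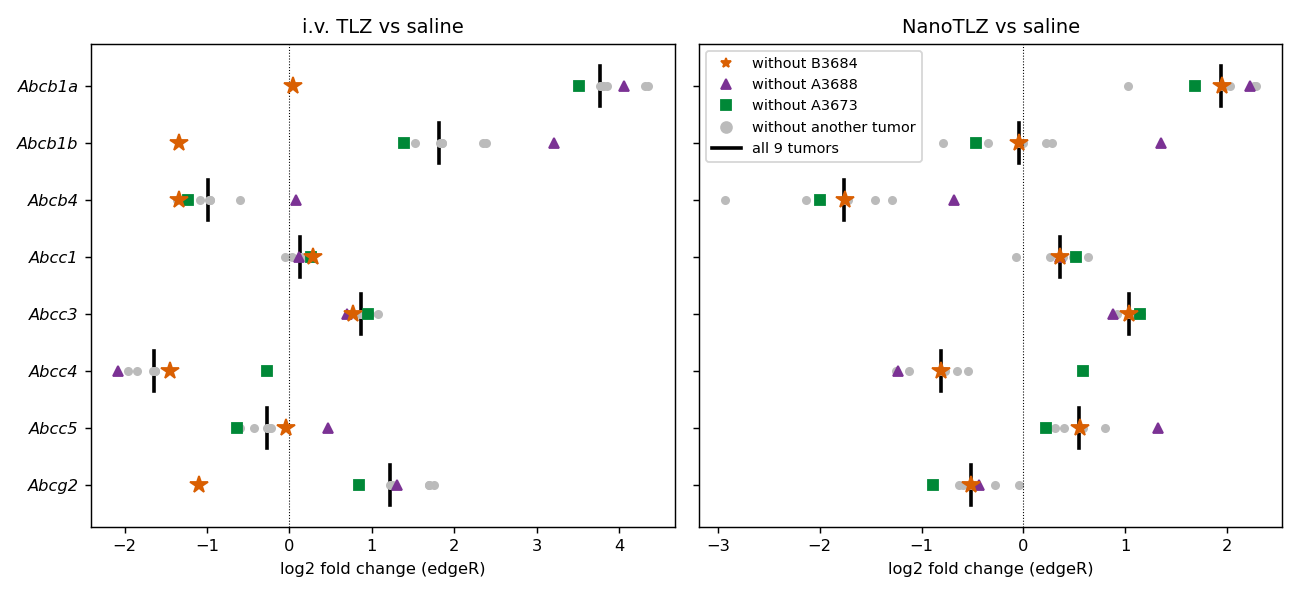
Log2 fold change against saline with all 9 tumors (black bar) and with 1 tumor left out (points), for i.v. TLZ and NanoTLZ. Without B3684 (stars) the i.v. TLZ values of *Abcb1a*, *Abcb1b* and *Abcg2* move to 0.05, -1.34 and -1.10, and the values of *Abcc3* stay between 0.70 and 1.15 in both panels whichever tumor is left out.

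Levels were compared between genes per kb of the union of annotated exons, and the order depends on this length. It is 15092 bases for *Abcc1* and 5698 for *Abcc3*, while their coding sequences have 4587 and 4572 bases. In CPM *Abcc1* was above *Abcc3* in every tumor, at 82.7 to 200.5 against 19.0 to 63.4 CPM. The levels that follow are per kb unless CPM is named. In 8 of the 9 tumors an MRP gene led. *Abcc1* had the highest level in 4 tumors, *Abcc3* in 3 and *Abcc4* in 1, the saline tumor A3673. In B3684 the order was different, with *Abcb1a* first and *Abcb1b* next, before *Abcc3* and *Abcc1*. In CPM the order in B3684 was *Abcb1b* (90.8), *Abcc1* (85.5), *Abcb1a* (68.9) and *Abcc3* (52.8). Per kb, the P-glycoprotein pair made up 49.7% of the summed level of the 8 transporters in B3684, against 1.19% to 17.6% in the other tumors. The sum was also highest in B3684, at 48.2 CPM per kb, where the other tumors had 19.8 to 38.3 CPM per kb. Per kb, *Abcb4* was the lowest of the 8 in every tumor, while in CPM *Abcb1a* was lower in A3688 (2.34 against 2.43).

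**Figure D5:**
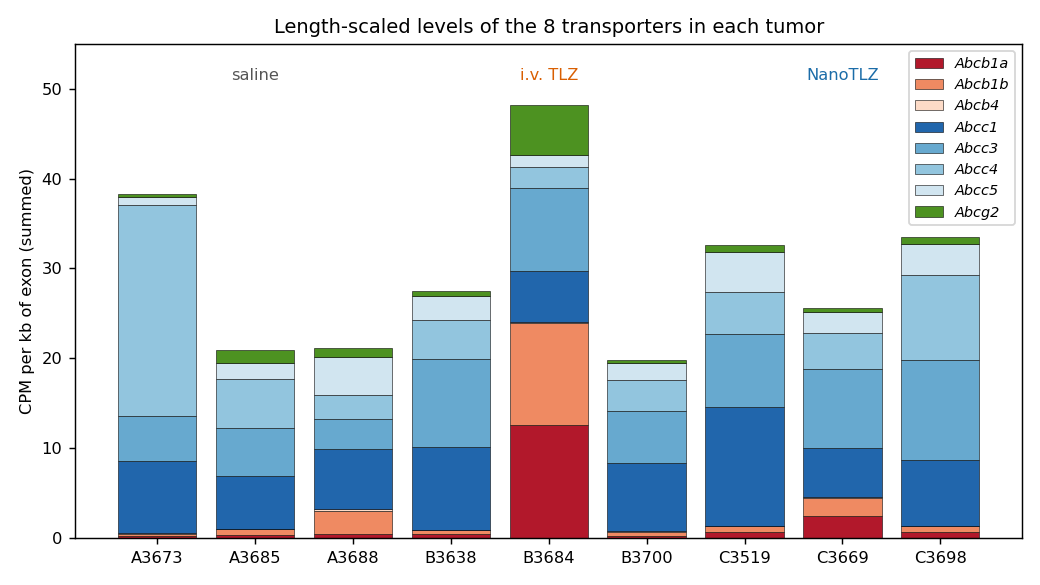
Level of each transporter in CPM per kb of exon, stacked for each tumor. *Abcb1a* and *Abcb1b* (red and orange) make up 49.7% of the bar of B3684 and at most 17.6% of any other, and *Abcc4* makes up most of the bar of A3673.

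The spread within groups differed between members. The biological coefficient of variation was 96.3% for *Abcb1a* and 95.8% for *Abcb1b*, above that of 96.7% and 96.6% of all tested genes. It was 78.3% for *Abcg2*, 72.3% for *Abcb4* and 58.2% for *Abcc4*. *Abcc5*, *Abcc1* and *Abcc3* had the lower values of 47.0%, 33.6% and 30.8%.

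Across the 9 tumors, the log2 CPM of *Abcb1a* and *Abcb1b* had a Pearson correlation of 0.888, and of 0.677 without B3684. The correlation of *Abcg2* was 0.725 with *Abcb1a* and 0.788 with *Abcb1b*, and without B3684 it was 0.0835 and 0.375. Much of the likeness of *Abcg2* to the P-glycoprotein genes therefore rested on 1 tumor. Outside the members, the genes most like *Abcb1a* over the 9 tumors were *Ypel4* (r = 0.976), *Map6* (0.961) and *Selenos* (0.944). Those most like *Abcb1b* were *Plekha4* (0.957), *Ptprt* (0.949) and *Sema3d* (0.948), and those most like *Abcg2* were *Klhl13* (0.966), *Fndc10* (0.953) and *Slco1a5* (0.947). *Slco1a5*, which encodes an uptake carrier for organic anions, was at 357 CPM in B3684, 16.8 times the next tumor. All 9 of these genes were highest in B3684, which weighs heavily in each of these correlations.

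The likest genes of the other members followed other tumors. For *Abcc4* they were *Epha4* (r = 0.956), *Elovl6* (0.949) and *Atp6v1a* (0.949), all highest in A3673. For *Abcb4* they included *Rnf40* (0.961) and *9930014A18Rik* (0.943), both highest in A3688. For *Abcc3* they were *Nfkbid* (0.965), *Tk2* (0.959) and *Tep1* (0.958), for *Abcc5* *Rnf135* (0.968), *Cd79b* (0.951) and *Pam16* (0.944), and for *Abcc1* *Gm26606* (0.896), *Chga* (0.884) and *Ccdc88c* (0.871).

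The genes next to the Abcb cluster on chromosome 5 were also high in A3688 and B3684. *Rundc3b*, which precedes *Abcb1a*, was at 9.82 CPM in A3688 and 6.18 CPM in B3684, and at no more than 0.546 CPM in the other 7 tumors. *Crot*, a carnitine octanoyltransferase that follows *Abcb4*, was at 74.2 CPM in A3688 and 46.9 CPM in B3684, against at most 29.6 CPM in the others. *Abcb1b* had its 2 highest values in the same 2 tumors. *Abcb4* was highest in A3688, at 2.43 CPM. Its 0.875 CPM in B3684 came next but rested on 16 counts, close to the 14 counts (0.764 CPM) of C3669. *Abcb1a* did not have its 2 highest values in these tumors, since A3688 was at 2.34 CPM. The antisense gene *Gm5106* shares 143 exon bases with *Abcb1b* and had 16 counts in all tumors together.

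RefSeq promoter windows (GRCm38.p6, 250 bases before a transcript start) were found for 6 of the 8 members, 9 windows in all. *Abcb1a* and *Abcb1b* are shown, since both were highest in B3684 while A3688 was high in one of them. Each was searched on both strands for CCAAT (the CCAAT box), GGGCGG (the GC box), TATAAA (the TATA box) and TGACNNNGC (the core of the antioxidant response element), which occurred in 33.8%, 32.7%, 12.4% and 10.2% of all 32851 windows. Matches are in capitals. The *Abcb1a* window (chr5:8566841-8567090) is 93 kb before the start of the gene in GENCODE, inside the span of *Rundc3b* (chr5:8490334-8622952).
Abcb1a: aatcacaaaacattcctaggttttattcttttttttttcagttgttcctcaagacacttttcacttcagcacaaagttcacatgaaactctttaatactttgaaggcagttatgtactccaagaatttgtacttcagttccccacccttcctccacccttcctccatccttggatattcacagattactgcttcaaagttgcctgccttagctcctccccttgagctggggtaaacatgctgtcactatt
The *Abcb1b* window (chr5:8797897-8798146) ends at the gene's start.
Abcb1b: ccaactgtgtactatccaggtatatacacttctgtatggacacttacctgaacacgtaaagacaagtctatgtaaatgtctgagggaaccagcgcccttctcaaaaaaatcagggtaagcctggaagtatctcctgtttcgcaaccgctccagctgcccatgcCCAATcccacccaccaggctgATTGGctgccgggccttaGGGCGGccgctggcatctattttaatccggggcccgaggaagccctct
The *Abcb1b* window held 2 CCAAT boxes, at -87 to -83 and on the other strand at -66 to -62, and a GC box at -48 to -43. The *Abcb1a* window held none of these 4 words, which says only that these letters are not in this window. The *Abcb4* window held 1 CCAAT box and 1 GC box. The 3 windows of *Abcg2* held 0, 2 and 4 GC boxes, and the TGACNNNGC word was found in both windows of *Abcc4* and in no other member's. The window of *Abcc5* held none of the 4 words. These matches are descriptions of the sequence and not sites known to be bound in these tumors.

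The other ABC genes gave 0 calls in any of the 4 comparisons in edgeR. Together with the 8 members 53 ABC genes were listed and 39 were tested. Of these 39, 6 were highest in B3684, where 14.3% of all tested genes were highest. The 3 that were at least 3 times the next tumor there (0.853% of all tested genes) were *Abcb1a*, *Abcb1b* and *Abcg2*. In the comparison of both treatments with saline, 7 of the 11 tested ABCA genes (mostly lipid transporters) had a higher and 4 a lower fitted value, with a median log2 fold change of 0.30. *Abca7* was at 0.70 (SE 0.34, adjusted p = 0.414 in edgeR), *Abca2* at 0.50 and *Abca9* at 0.58. Of the other ABCB genes, 4 of 6 were higher and 2 lower, among them the lysosomal peptide transporter *Abcb9* at -1.13 and *Tap2*, which loads peptides for antigen presentation, at 0.46. All 3 tested members of the other ABCG genes were higher, with the cholesterol exporter *Abcg1* at 0.90 (SE 0.41, adjusted p = 0.387 in edgeR), *Abcg4* at 0.92 and *Abcg3* at 0.56. Of the 8 ABCD, ABCE and ABCF genes 3 were higher and 5 lower, with *Abcd3* at -0.70, *Abcd4* at 0.60 and *Abcf2* at 0.26.

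Of the 3 other tested ABCC genes, 2 had a higher and 1 a lower fitted value. *Abcc9*, the sulfonylurea receptor subunit of a potassium channel, was lower in every treated tumor, at 10.8 to 15.2 CPM against 19.2 to 24.7 CPM in saline, where 2.66% of all tested genes were lower without overlap. Its log2 fold change for both treatments was -0.72 (SE 0.25), with an adjusted p of 0.295 in edgeR. *Abcc10* was at 0.54 and *Cftr*, the chloride channel of epithelia, at 0.56 with an SE of 1.59.

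Regulators and partners of the pumps also gave 0 calls in edgeR in any comparison. Of 15 tested transcription regulators of efflux genes, 6 had a higher and 9 a lower fitted value with both treatments, and 1, *Sp1*, had an unadjusted p under 0.05, where 13.1% of all tested genes had one. *Sp1*, which binds GC boxes, was at -0.62 (SE 0.27, adjusted p = 0.369 in edgeR), *Foxo3* at -0.68 and *Arnt*, the partner of the aryl hydrocarbon receptor, at -0.34. Of 17 genes of glutathione synthesis and conjugation, which make substrates for MRPs, 9 were higher and 8 lower, with unadjusted p under 0.05 for 1 in each direction, a share that is not above the 13.1% of all tested genes. The glutathione transferase *Gsto1* was higher in all 6 treated tumors, at 83.3 to 199 CPM against 56.6 to 82.6 CPM in saline (2.81% of all tested genes were higher without overlap), and highest in B3684. The microsomal transferases *Mgst3* and *Mgst1* had log2 fold changes of 1.05 (SE 0.39) and -0.89 (SE 0.36), with adjusted p of 0.326 and 0.346 in edgeR. Of 7 tested partners that anchor transporters in the membrane, 5 were higher and 2 lower, with *Rdx* (radixin) at -1.16, *Cav1* (caveolin) at 1.58 and *Slc9a3r2* at 0.64.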

How the data were processed

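RNA of 9 tumors was sequenced by Novogene. The authors deposited a table of raw counts of reads on each gene, not normalized. Per the labels, TopHat2, DESeq2 and build mm10 were used in their processing, and the counting program, annotation and strand setting are not given in the sources used here. Reads matching several genes or the opposite strand may therefore be placed differently than assumed here, which bears on Abcb1a and Abcb1b most. Symbols, positions and exon lengths were taken from GENCODE M21 (GRCm38), which held 34490 of the identifiers and lacked 785. All columns of the table were used, and no columns were identical.

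Genes were filtered with filterByExpr (minimum count 10, minimum total 15), scaled by TMM and fitted to all 9 tumors with 1 coefficient per group by glmQLFit and glmQLFTest in edgeR 4.0.16 (R 4.3.3), with Benjamini-Hochberg adjustment over the 15821 tested genes. A gene was called at an adjusted p under 0.05. The SE is the log2 fold change divided by the square root of F. CPM used TMM library sizes, and CPM per kb the union of annotated exons. Correlations used log2 CPM with a prior count of 2. Coding sequences were aligned with Biopython 1.88 (Python 3.11.15). In counts drawn for the 15821 genes with 200 genes changed 8-fold in NanoTLZ against saline, 141 were called, all in the right direction, with 9 unchanged genes.

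The members and gene lists were chosen with earlier results of these data known. All members are named, up to 3 genes of each list with the smallest p for both treatments against saline, the 3 genes most correlated with each member, and the neighbours and overlapping genes of the Abcb cluster. Some genes that this rule names are not reported here. Each tumor is 1 mouse. Alternatives were DESeq2 1.42.0 on all tumors or the compared groups, edgeR on the compared groups, RLE and upper quartile scaling, other count filters, and 1 tumor left out at a time. Leaving out A3688 and B3684 together and robust dispersions were added after seeing the data.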

Additional observations from a re-analysis of the deposited data

How the results depend on the processing

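Of the 8 transporters, 0 were called at an adjusted p under 0.05 under every alternative run, and the smallest adjusted p among 556 alternative values (13 of them, from DESeq2, without a p) was 0.103, for *Abcc3* with both treatments in DESeq2 on all 9 tumors. The fitted direction held in 526 of them. Against saline, *Abcc3* was higher under each of them, and so was *Abcb1a*. The calls over all genes moved with the tool and the filter, from 0 after i.v. TLZ, 1 after NanoTLZ, 0 for NanoTLZ against i.v. TLZ and 3 for both treatments in edgeR. DESeq2 on all 9 tumors called 194, 110, 3 and 273 genes, and on the compared groups alone 92, 171 and 21 genes in the first 3 comparisons. Without a low-count filter edgeR called 5, 6 and 33 genes against saline. edgeR on the compared groups called 0 genes after NanoTLZ, and keeping genes with at least 10 counts in every tumor left 1 for both treatments. Without A3688 and B3684 it called 2 after NanoTLZ and 1 for both treatments. With 1 tumor left out the calls were 0 to 3 after NanoTLZ (3 without A3673) and 0 to 18 for both treatments (18 without A3673). The cause of these shifts was not tested.

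With upper quartile scaling *Abcb1b* was at 0.0346 after NanoTLZ. Without both A3688 and B3684, *Abcc5* was at 0.70 and *Abcg2* at -1.04 after i.v. TLZ, *Abcb1b* at 1.35 after NanoTLZ, *Abcg2* at -0.73 with both treatments, and *Abcb1a*, *Abcb1b* and *Abcg2* at 1.92, 1.32 and 0.61 for NanoTLZ against i.v. TLZ. With 1 tumor left out, log2 fold changes that changed sign ranged as follows. After i.v. TLZ, *Abcb1b* ranged from -1.34 to 3.21, *Abcb4* from -1.36 to 0.0756, *Abcc1* from -0.0552 to 0.29, *Abcc5* from -0.63 to 0.47 and *Abcg2* from -1.10 to 1.75. After NanoTLZ, *Abcb1b* ranged from -0.79 to 1.35, *Abcc1* from -0.0779 to 0.63 and *Abcc4* from -1.25 to 0.58. For NanoTLZ against i.v. TLZ, *Abcb1a* ranged from -2.77 to 1.90, *Abcb1b* from -2.64 to 1.30, *Abcc1* from -0.21 to 0.49, *Abcc3* from -0.0112 to 0.31 and *Abcg2* from -2.24 to 0.58. With both treatments, *Abcb1b* ranged from -0.69 to 2.28, *Abcc4* from -1.66 to 0.16, *Abcc5* from -0.21 to 0.89 and *Abcg2* from -0.81 to 0.83.

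No paired analysis was possible, since each tumor came from a different mouse and each mouse had 1 treatment. Depth limits *Abcb4* most, with 2 to 53 counts per tumor. With 3 tumors a group, 1 tumor can set a mean, and p-values measure the spread between these tumors.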
